A study of Mus musculus with 4 samples.

Results

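A set of 10 genes known from tissue-resident-like macrophages (Cd163, Vsig4, Mrc1, Folr2, Lyve1, Pf4, F13a1, Ccl8, C1qa and C1qb) was followed by symbol through single-cell RNA profiles of mouse sarcomas. The genes were chosen by their symbols after results of these data were known. They were selected on their measured levels in macrophage sub-clusters and their measured differences with digoxin, so those values are given as a description and without a test. All 10 were found in both deposited tables, among 16349 genes measured in non-malignant cells, 17992 in malignant cells and 18220 in either. The tumors were allografts in the hind limb, labelled KrasLSL-G12D/+;Trp53flox/flox on the 129/SvJae strain in every group, so the controls carried the same alleles. The host's own genotype and age, and whether the grafts came from a single line, are not given in the sources used here. Vehicle mice (n = 2) received PBS and digoxin mice (n = 2) received digoxin, a cardiac glycoside that inhibits the sodium pump, at 2 mg/kg by intraperitoneal injection each 24 h. Tumors were collected after the fourth dose, dissociated with enzymes and profiled on a droplet platform in which each RNA molecule carries a unique molecular identifier (UMI). Below, mice are listed in the order vehicle 1, vehicle 2, digoxin 1 and digoxin 2, and a level is the mean over cells of a gene's UMIs per 1000000 UMIs of the cell (CPM).

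Macrophages of a tissue clear debris, proteins and dying cells with scavenger receptors, and many also make the first components of the complement cascade. CD163 takes up haptoglobin with haemoglobin, the mannose receptor MRC1 (CD206) binds glycoproteins, the folate receptor FOLR2 binds folate, and LYVE1 binds hyaluronan on perivascular macrophages and on lymphatic vessels. VSIG4 is a complement receptor for C3b fragments, C1qa and C1qb encode chains of C1q, and PF4 (CXCL4), F13A1 (the A chain of coagulation factor XIII) and CCL8 are secreted or released products.

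On GRCm38, with the GENCODE vM21 annotation, the members lie on 8 chromosomes as protein-coding genes. Cd163 occupies chr6:124304656-124330527 on the plus strand and Vsig4 chrX:96247203-96293438 on the minus strand. Pf4, a short gene, occupies chr5:90772435-90773383 and Ccl8 chr11:82115185-82116799, both on the plus strand. C1qa (chr4:136895917-136898803) and C1qb (chr4:136880129-136886187) lie 9730 bases apart on the minus strand, and Folr2 and Lyve1 both lie on chromosome 7. The 250 bases before the RefSeq start (GRCm38.p6) are printed for the pair that was lower with digoxin, for Pf4, which was higher, and for Ccl8, which was also found outside macrophages. RefSeq windows were matched for 8 of the 10 members. Each is read 5′ to 3′ along the gene's own strand. Capitals mark matches on either strand to GAGGAA, the core bound by the myeloid factor PU.1, or to TGCTGA, a string bound by MAF factors; these matches do not overlap.

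Cd163 (chr6:124304401-124304650, plus strand): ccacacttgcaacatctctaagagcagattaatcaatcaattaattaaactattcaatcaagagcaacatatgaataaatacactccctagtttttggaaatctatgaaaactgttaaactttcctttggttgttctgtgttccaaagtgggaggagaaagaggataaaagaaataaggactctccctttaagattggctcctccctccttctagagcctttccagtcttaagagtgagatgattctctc
Vsig4 (chrX:96293439-96293688, minus strand): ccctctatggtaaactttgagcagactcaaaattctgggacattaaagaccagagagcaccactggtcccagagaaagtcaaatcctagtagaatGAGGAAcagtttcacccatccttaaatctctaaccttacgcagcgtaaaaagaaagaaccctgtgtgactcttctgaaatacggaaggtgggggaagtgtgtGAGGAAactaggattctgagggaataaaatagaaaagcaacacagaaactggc
Pf4 (chr5:90772185-90772434, plus strand): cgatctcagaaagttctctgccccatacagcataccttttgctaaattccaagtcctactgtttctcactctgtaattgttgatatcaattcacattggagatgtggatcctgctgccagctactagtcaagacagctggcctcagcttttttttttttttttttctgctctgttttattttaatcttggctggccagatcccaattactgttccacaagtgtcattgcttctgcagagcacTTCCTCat
Ccl8 (chr11:82114935-82115184, plus strand): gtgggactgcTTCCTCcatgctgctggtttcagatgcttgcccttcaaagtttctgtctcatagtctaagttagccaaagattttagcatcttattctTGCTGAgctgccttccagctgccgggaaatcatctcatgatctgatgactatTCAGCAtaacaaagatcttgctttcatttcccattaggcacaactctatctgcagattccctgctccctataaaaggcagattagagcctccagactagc

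The Vsig4 window held 2 matches to GAGGAA and the Pf4 window held 1. Ccl8 had 1 match to GAGGAA and 2 to TGCTGA, while the Cd163 window had neither string. Among 32851 promoter windows of the same length, 23.3% held GAGGAA and 16.1% held TGCTGA, so single matches are common and are given only as a description.

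The deposited annotation gave 10363 macrophages (2418 to 2748 per mouse) in sub-clusters named M1, M2 and Highly proliferative M2, beside 18963 malignant cells (3976 to 6269 per mouse). The median depth was 16070 to 17049 UMIs per macrophage and 46799 to 57658 UMIs per malignant cell. All 7 macrophage markers looked up were present in the macrophages, with Lyz2 at 10679 to 16171 CPM, Csf1r at 491 to 755 CPM and Adgre1 at 257 to 323 CPM. The sum of monocyte markers was 2162 to 2531 CPM in M1 and 227 to 421 CPM in M2, and the sum of the cycling markers Mki67 and Top2a was 1539 to 1854 CPM in Highly proliferative M2 against 86 to 130 CPM in M2. The type labelled Epithelial carried endothelial genes (Cdh5 859 to 971 CPM) with Epcam at or below 0.36 CPM. In the type labelled Microglia, Siglech was 2178 to 2592 CPM and Tmem119 at most 2.75 CPM. Vehicle 2 stood apart from the other mice, with M2 cells at 61.5% of its macrophages against 39.2% to 43.5%. In its macrophages Xist was 0.161 CPM and Ddx3y 87.7 CPM, against 635 to 753 CPM and 1.74 to 2.28 CPM in the other mice. These sex-linked genes were thus not balanced between the groups, both digoxin mice having the pattern of vehicle 1. Pairs of libraries shared 14 to 25 cell barcodes of 7233 to 9283, and no barcode was shared between the malignant and non-malignant cells of a mouse. Cells of one mouse are not replicates, and nothing in the labels gives a processing batch.

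To see where the set was expressed, levels were compared across macrophage sub-clusters. The sub-clusters were drawn by the authors from the same transcripts, so this is a description. In each mouse, the members other than Pf4 were higher in M2 than in both other sub-clusters. By the mean of the 4 mice these members followed the order M2, Highly proliferative M2, M1, but Cd163 in digoxin 1 and Ccl8 in vehicle 2 and digoxin 2 were higher in M1 than in Highly proliferative M2. Among the receptors, Mrc1 was the most abundant, at 2268, 1722, 2464 and 2064 CPM in M2, 925, 777, 1043 and 827 CPM in Highly proliferative M2, and 535, 400, 539 and 417 CPM in M1. No mouse of one sub-cluster overlapped those of the next. Folr2 was 418, 500, 435 and 511 CPM in M2, 199 to 249 CPM in Highly proliferative M2 and 97.7 to 135 CPM in M1, again without overlap. Lyve1 was 534, 326, 400 and 529 CPM in M2 above the ranges of 91.1 to 180 CPM in Highly proliferative M2 and 26.0 to 47.1 CPM in M1. CPM compares cells for one gene; between genes it reflects UMIs from 3′ ends and not length.

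The haemoglobin receptor Cd163 and the complement receptor Vsig4 were sparse. In M2, Cd163 was 95.7, 87.6, 54.1 and 36.5 CPM, against 7.91 to 15.3 CPM in M1 and 8.10 to 32.1 CPM in Highly proliferative M2. The ranges of M1 and Highly proliferative M2 overlapped, so the order of those 2 sub-clusters does not exceed the spread over mice. Vsig4 reached 25.5, 40.5, 12.8 and 16.4 CPM in M2, 2.83 to 10.3 CPM in Highly proliferative M2 and 0.52 to 5.30 CPM in M1, and the latter ranges also overlapped. Both genes had a median of 0 CPM over cells in every sub-cluster of every mouse.

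The complement genes were broad and high. C1qa was 4743, 5858, 5320 and 5659 CPM in M2, 3015 to 3484 CPM in Highly proliferative M2 and 1620 to 2752 CPM in M1, with no overlap between sub-clusters. C1qb was 3959, 5941, 4797 and 5403 CPM in M2, and its ranges in Highly proliferative M2 (2686 to 3527 CPM) and M1 (1822 to 3035 CPM) overlapped each other. Their UMIs stood in a nearly fixed ratio, C1qa to C1qb being 1.14, 0.99, 1.07 and 1.04 in M2 and 0.90 to 0.98 in M1.

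The secreted products differed among themselves. The factor XIII subunit gene F13a1 was 1896, 1440, 1977 and 1757 CPM in M2, 565 to 764 CPM in Highly proliferative M2 and 312 to 596 CPM in M1, the latter ranges overlapping. Ccl8, a chemokine, was 2882, 1408, 2651 and 1949 CPM in M2, and overlapped between Highly proliferative M2 (264 to 984 CPM) and M1 (314 to 712 CPM). Pf4 was 1089, 510, 1847 and 1676 CPM in M1, 801, 1004, 1130 and 1318 CPM in M2, and 602 to 949 CPM in Highly proliferative M2. Its 4 means per sub-cluster were 1280 ± 608 in M1, 1063 ± 217 in M2 and 734 ± 161 CPM in Highly proliferative M2 (SD, n = 4). By group means, M1 was below M2 with vehicle (799 and 902 CPM) and above it with digoxin (1761 and 1224 CPM). The vehicle mice were split, as only vehicle 2 had less Pf4 in M1 (510 CPM) than in M2 (1004 CPM). The other mice of both groups had more Pf4 in M1, so the turn in the group means rests on vehicle 2. The ranges of neighbours in the order over all mice overlapped. Within each of the 4 mice, however, Pf4 was higher in M2 than in Highly proliferative M2.

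**Figure D1:**
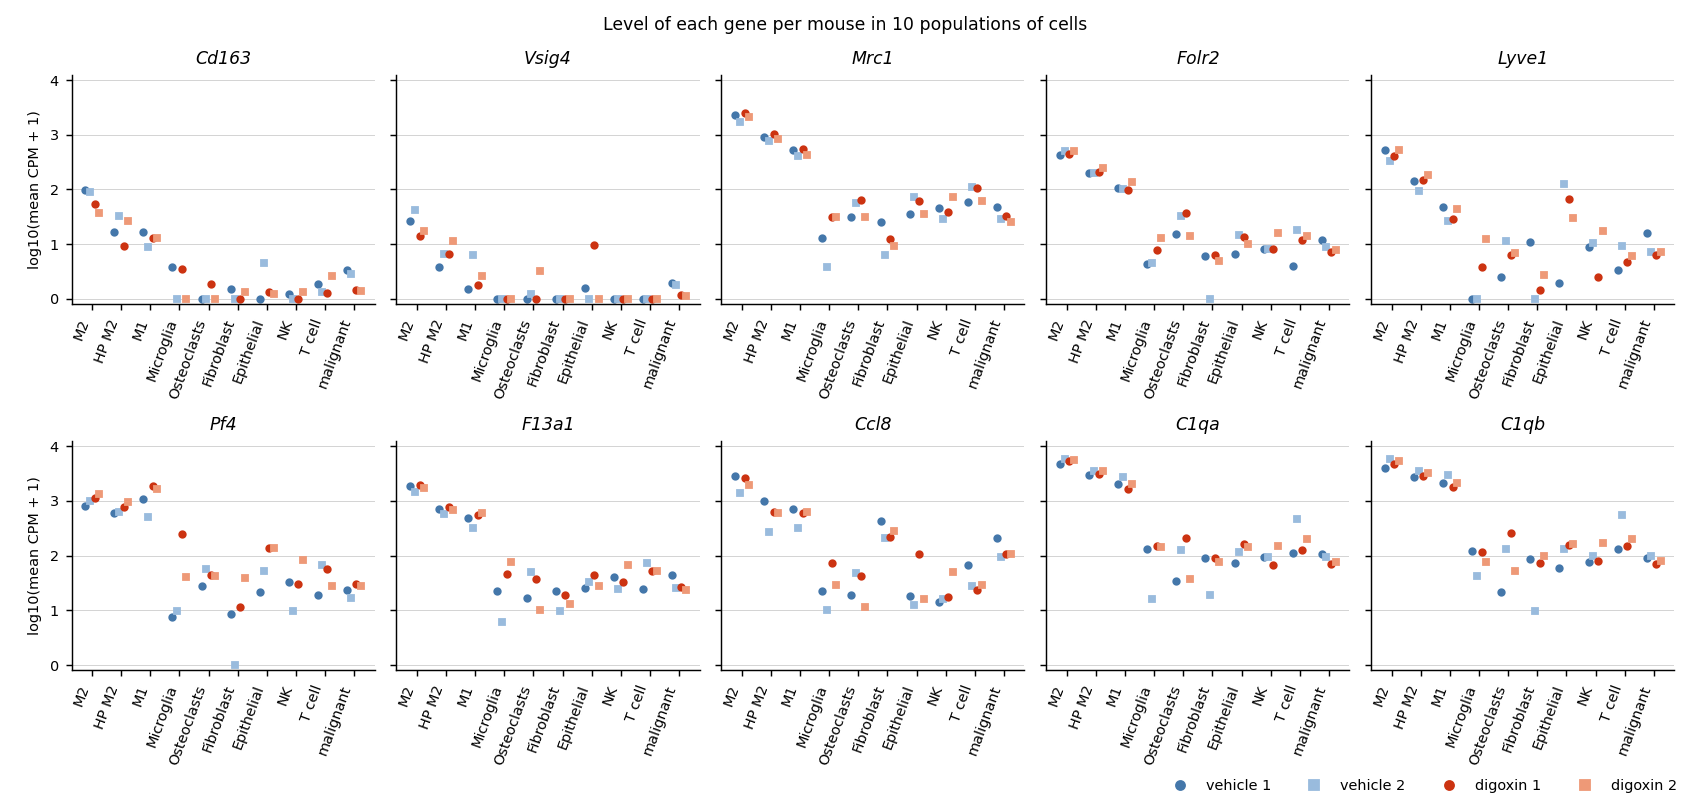
Mean CPM of each member per mouse on a log10(mean CPM + 1) axis, by population; each point is 1 mouse. In each mouse the members other than Pf4 are highest in M2 among the macrophage sub-clusters, while Pf4 in M1 spans 510 to 1847 CPM and Ccl8 stays at 205 to 429 CPM in fibroblasts.

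The members also differed in how evenly they were spread over M2 cells. A C1qb UMI was found in 98.7% to 99.7% of M2 cells and a Pf4 UMI in 89.8% to 96.6%. Cd163 was detected in 25.5%, 29.0%, 19.98% and 15.3% of M2 cells (exact 95% intervals of 22.8 to 28.4, 26.7 to 31.3, 17.7 to 22.4 and 13.3 to 17.5). Vsig4 was detected in 30 of 948, 79 of 1511, 24 of 1136 and 30 of 1191 M2 cells. These intervals cover counting error only. With each cell thinned to 5000 UMIs, 4 to 12 M2 cells per mouse being too shallow, the Cd163 shares were 15.7%, 18.1%, 10.3% and 7.4%, and the Vsig4 shares 2.6%, 4.0%, 1.8% and 2.1%. T cells, which should lack both genes, had none after the same thinning; before it, their cells held a median of 7244 to 8232 UMIs and M2 cells 16330 to 17650. C1qa was found in 12.7% to 28.0% of thinned T cells, at 112, 473, 125 and 203 CPM unthinned; its source there was not tested.

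Few cells carried a large part of the level of the sparse transcripts. Only 7, 18, 4 and 7 M2 cells held 50% of the summed Vsig4 level, or 0.352% to 1.19% of cells. For Cd163 this share was 1.6% to 4.04% of M2 cells, and for Ccl8 4.63% to 7.70%. C1qb, in contrast, needed 30.3% to 39.0% of M2 cells. A Ccl8 UMI was nevertheless found in 62.8% to 79.7% of M2 cells, so the transcript was common and its summed level uneven.

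Within M2 cells, Vsig4 and the hyaluronan receptor Lyve1 were found together more often than independent detection gives. Both were seen in 26, 61, 22 and 26 cells, or 1.65, 1.54, 1.82 and 1.51 times the product of their separate shares, in 4 of 4 mice. Of all pairs of members, this pair had the highest ratio in each mouse and was named for that. Vsig4 with Ccl8 gave ratios of 1.21, 1.35, 1.36 and 1.35, and Cd163 with Lyve1 gave 1.36, 1.35, 1.25 and 1.32. The ratio has a ceiling that falls as the share of cells with either gene rises. A pair with a gene found in nearly all M2 cells therefore cannot reach such ratios. Deeper cells raise detection of every gene, so these ratios are a description. Across macrophages, the per-cell levels of C1qa and C1qb had a mean Pearson r of 0.949 over the 4 mice, and those of Mrc1 and F13a1 of 0.703. Cd163 and Pf4 had a mean r of 0.167 across macrophages, 0.212 in M1, 0.236 in Highly proliferative M2 and 0.039 in M2. Vsig4 and Pf4 had a mean r of 0.033 across macrophages and -0.014 in M2. Cells share a library and these values carry no test.

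Outside macrophages, Vsig4 had no UMI in fibroblasts, NK cells or T cells. In the type labelled Epithelial it had 52 UMIs from 1 cell of digoxin 1, which brought that mouse to 8.57 CPM, above its macrophage level of 6.29 CPM, and 1 UMI in vehicle 1. Cd163 was at most 1.57 CPM in any mouse in NK cells, T cells, osteoclasts and fibroblasts. It was at most 2.87 CPM in the type labelled Microglia and 3.46 CPM in the type labelled Epithelial. The types labelled B cell, Dendritic and Neutrophil held 4 to 34 cells per mouse. Only 1 cell of each had a Cd163 UMI, which brought the highest mouse to 62.1, 36.6 and 4.78 CPM. In the Neutrophil type F13a1 was 1089, 502, 389 and 557 CPM, Mrc1 was 1053, 138, 427 and 446 CPM and C1qa was 657 to 1271 CPM. In the B cell type C1qa reached 1707 CPM, from 1 of the 4 cells of vehicle 2.

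The chemokine Ccl8 was also measured in fibroblasts. In fibroblasts it stood at 429, 205, 222 and 283 CPM, which is 15.3% to 26.7% of the level in macrophages of the same mouse. A Ccl8 UMI was found in 91.0%, 67.7%, 80.0% and 85.7% of the 78, 31, 45 and 49 fibroblasts, and in 45.2% to 55.1% after thinning to 5000 UMIs, against 4.3% to 13.3% of thinned T cells. The sum of the macrophage markers in fibroblasts was 335, 128, 668 and 607 CPM, and its part in the Ccl8 level was not tested.

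Lyve1 appeared in the type labelled Epithelial at 0.94, 123, 66.8 and 29.0 CPM. Cells at or above 300 CPM, a line set after the values were seen, numbered 0, 6, 3 and 2 of 80, 98, 83 and 86, and held 97.8%, 98.7% and 90.7% of the type's Lyve1 UMIs in the last 3 mice. In the 6 cells of vehicle 2 the lymphatic vessel genes Flt4, Ccl21a and Pdpn, also looked up after the values were seen, averaged 740, 6066 and 302 CPM. The same 3 genes averaged 369, 0 and 604 CPM in the 3 cells of digoxin 1, and 392, 1265 and 154 CPM in the 2 cells of digoxin 2. Prox1 and Mmrn1 were looked up with them and were not among the genes measured. Below the line, Flt4 averaged 42.7 to 64.2 CPM, Ccl21a 0 to 115 CPM and Pdpn 1.77 to 9.16 CPM. There, 42 of 80, 49 of 92, 46 of 80 and 44 of 84 cells had a Flt4 UMI. At or above the line in the last 3 mice, Mrc1 averaged 609, 1228 and 72.3 CPM. C1qa averaged 815, 2061 and 18.1 CPM in the same cells. These few cells set the Lyve1 level of the type in the last 3 mice. They held 56.0%, 84.7% and 11.0% of its Mrc1 UMIs there, and 41.7%, 65.9% and 0.78% of its C1qa UMIs.

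Malignant cells carried all 10 members at a low level. For 9 members the mean was 1.29% to 8.81% of that in macrophages of the same mouse, and for Ccl8 it was 7.27% to 12.9%. The malignant table also held macrophage markers, whose sum was 426, 457, 354 and 356 CPM. Cells with under 3 of the 7 macrophage markers made up 56.0%, 57.9%, 53.3% and 49.1% of malignant cells, and in these cells the 9 members came to 0.24% to 0.72% of the macrophage level. Ccl8 kept 5.90% to 7.80%, at 117, 76.7, 85.5 and 79.9 CPM. Doublet scoring marked 8.50%, 7.37%, 5.49% and 5.56% of malignant cells, and these held 71.1% to 85.9% of the malignant C1qa UMIs and 34.3% to 41.2% of the Ccl8 UMIs.

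**Figure D2:**
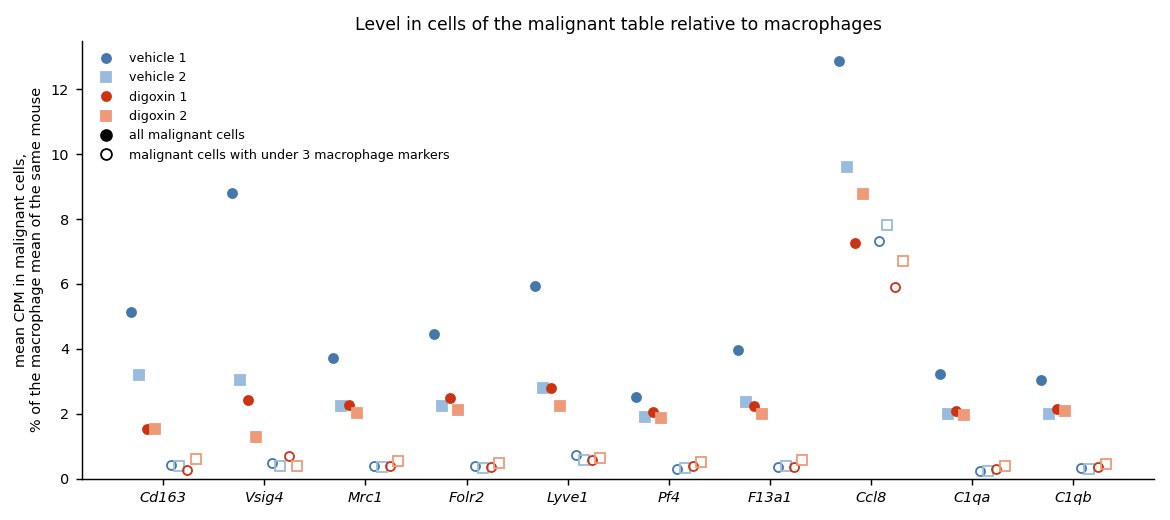
Level of each member in malignant cells as a percent of the level in macrophages of the same mouse (linear axis). Filled points are all malignant cells and open points those with under 3 of 7 macrophage markers. Ccl8 keeps the largest part of its level, going from 7.27% to 12.9% down to 5.90% to 7.80%, while the others are at 0.24% to 0.72%.

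The design asks whether digoxin altered the tumor's cells. The limma fit over all genes called 0 of 13734 genes in macrophages at an adjusted p of 0.05, with 555 at an unadjusted p under 0.05. It also called 0 of 12182 in M1, 0 of 12545 in M2, 0 of 11459 in Highly proliferative M2 and 0 of 17138 in malignant cells, where 942, 286, 451 and 585 genes had an unadjusted p under 0.05. edgeR called 0 in each population, and DESeq2 called 20, 42, 9, 16 and 45 genes in the order given. All 10 members passed the filter on low values in each of these fits. What follows describes the members in these 4 mice.

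In all macrophages, 2 members (Pf4 and F13a1) lay above both vehicle values in each digoxin mouse, as did 13.6% of all genes tested, and 2 (Cd163 and Vsig4) lay below them, as did 17.3%. The other 6 overlapped between groups. The median log2 difference was -0.04 over the members and -0.01 over all genes. In M2 the count was 1 higher (15% of all genes) and 2 lower (11.7%), and in M1 2 higher (15.3%) and 1 lower (24%). Highly proliferative M2 had 3 higher (17.4%) and 0 lower (12.6%).

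Cd163 in M2 averaged 91.6 ± 5.77 CPM with vehicle and 45.3 ± 12.4 CPM with digoxin (SD, n = 2), a log2 difference of -1.03 ± 0.20 (limma SE). Both vehicle mice lay above both digoxin mice, and the share of M2 cells with a UMI had the same order, thinned or not. In M1, Cd163 was 15.3, 7.91, 11.7 and 11.7 CPM, and the groups overlapped. In Highly proliferative M2 it was 15.6, 32.1, 8.10 and 25.3 CPM and overlapped as well, at -0.60 ± 0.48. Over all macrophages the level was 46.9, 59.2, 28.8 and 24.4 CPM, and the log2 difference was -0.97 ± 0.16.

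Vsig4 in M2 averaged 33.0 ± 10.6 CPM with vehicle and 14.6 ± 2.52 CPM with digoxin (SD, n = 2), at -1.10 ± 0.24 on the log2 scale. The groups did not overlap, but they rest on 408, 1127, 278 and 379 UMIs, mostly from a few cells. In Highly proliferative M2 the gene was 2.83, 5.71, 5.59 and 10.3 CPM, with a difference of 0.77 ± 0.35 and overlapping groups. Over all macrophages Vsig4 was 10.7, 27.0, 6.29 and 9.24 CPM, and the log2 difference of -1.07 became -0.44 without vehicle 2 and -1.70 without vehicle 1. Vsig4 is X-linked and vehicle 2 is the mouse without Xist; the part of this in its level was not tested.

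Pf4 lay above the vehicle mice in each digoxin mouse in every sub-cluster. Its log2 difference was 1.24 ± 0.32 in M1, 0.44 ± 0.16 in M2 and 0.48 ± 0.12 in Highly proliferative M2 (limma SE), and 0.72 ± 0.11 over all macrophages, where it was 900, 824, 1430 and 1418 CPM. F13a1 was 483, 312, 563 and 596 CPM in M1, a difference of 0.58 ± 0.19 without overlap, and overlapped in M2 and Highly proliferative M2. Fewer cells of a kind and less RNA per cell cannot be told apart in a mean over cells.

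Of the remaining members, only C1qa, Lyve1 and Folr2 separated the groups in any sub-cluster. In M1, C1qa was 2063, 2752, 1620 and 2040 CPM, lower in both digoxin mice by a narrow margin, with C1qb overlapping at -0.36. In Highly proliferative M2, Lyve1 was 142, 91.1, 147 and 180 CPM (0.51 ± 0.20) and Folr2 198.6, 199.3, 210.4 and 248.8 CPM (0.20), both higher in the digoxin mice. Mrc1 and Ccl8 overlapped between groups in all 3 sub-clusters.

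**Figure D3:**
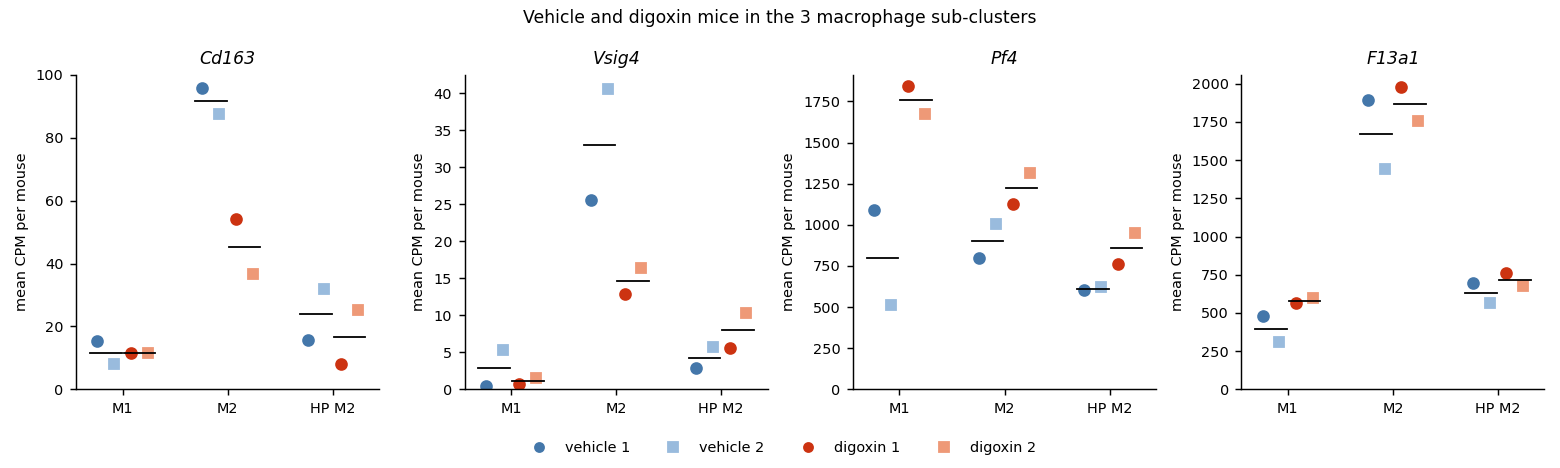
Mean CPM per mouse of Cd163, Vsig4, Pf4 and F13a1 in M1, M2 and Highly proliferative M2; points are mice and black lines group means (n = 2 each). Cd163 and Vsig4 separate the groups in M2 and overlap in M1 and Highly proliferative M2. Pf4 separates them in each sub-cluster, and F13a1 in M1 only.

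**Figure D4:**
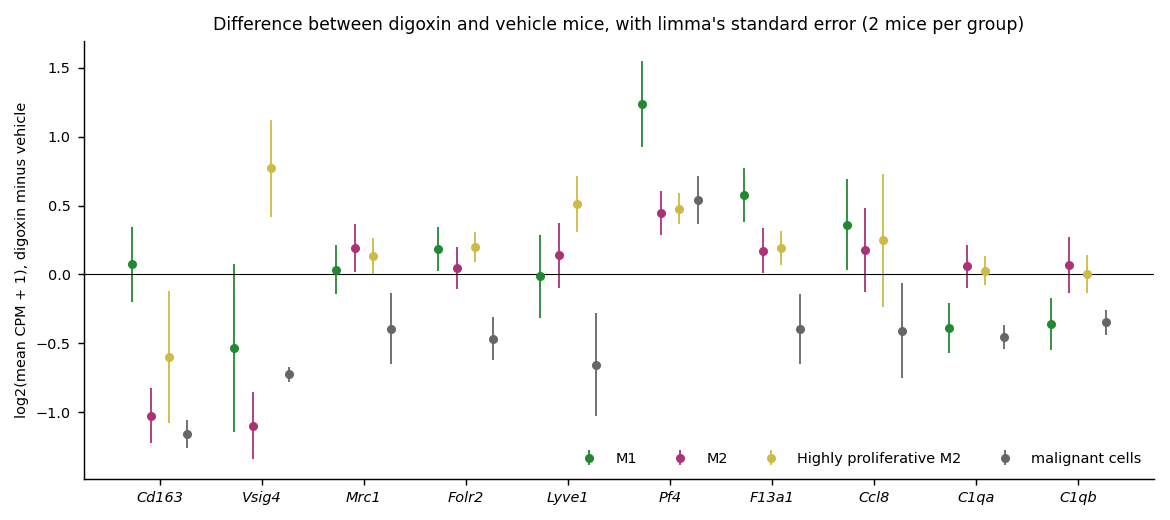
Log2 difference of digoxin minus vehicle for the 10 members in M1, M2, Highly proliferative M2 and malignant cells, with limma standard errors. Values are on the log2(mean CPM + 1) scale, so those of low levels, such as Cd163 in malignant cells (-1.16, or -2.15 with a pseudocount of 0.1), are not to be set beside those of higher levels; Pf4 lies above 0 in all 4.

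In malignant cells Cd163 was 2.41, 1.89, 0.44 and 0.37 CPM and Vsig4 0.94, 0.82, 0.15 and 0.12 CPM, lower in both digoxin mice. The malignant Cd163 mean with vehicle was 5.30 times that with digoxin, and its log2 difference of -1.16 became -2.15 with a pseudocount of 0.1, -0.40 with one of 5 and -0.49 without cells marked as doublets. Pf4 was 22.7, 15.7, 29.6 and 26.4 CPM, higher in both. The count was 1 higher (12.8% of all genes tested) and 5 lower (16.5%), namely Cd163, Vsig4, Folr2, C1qa and C1qb. The macrophage-marker sum and the share of cells marked as doublets, given above, were also lower in both digoxin mice, whereas the share of cells with 3 or more macrophage markers was higher in both (44.0%, 42.1%, 46.7% and 50.9%). Their part in these differences was not tested. Without the cells holding 3 or more macrophage markers, a check added after the data were seen, Cd163 was 0.198, 0.227, 0.075 and 0.145 CPM. Both digoxin mice were the lower ones, but these levels rest on only 23, 31, 9 and 11 UMIs. On the log2(CPM + 1) scale, which compresses such low levels, the Cd163 difference was then -0.13 in place of -1.16. The values of Folr2, Mrc1, F13a1, C1qa and C1qb were above 0, and Pf4 was at 0.99.

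The Pf4 level of M1 came from a minority of cells. Cells at or above 3000 CPM numbered 116, 31, 217 and 175, or 10.6%, 4.35%, 16.6% and 15.01% of M1 cells, and held 81.5%, 67.2%, 89.3% and 84.1% of the M1 Pf4 UMIs. This line was set after the values were seen, and 45, 23, 69 and 74 cells lay between 1500 and 3000 CPM. In the rest of M1, Pf4 averaged 240, 191, 267 and 316 CPM, and below a line of 1500 CPM 148, 124, 135 and 164 CPM; both sets were cut on Pf4 itself and are not compared between groups. The high cells were deeper, with a median of 16957 to 18604 UMIs against 12760 to 14286 UMIs in the rest.

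The same cells carried a distinct set of transcripts, named by the highest and lowest ratios in these mice and so not tested. Hmox1, the haem-degrading oxygenase, was 4401, 3960, 4982 and 3615 CPM in them against 374, 261, 604 and 463 CPM in the other M1 cells. The iron exporter Slc40a1 was 187, 167, 131 and 84.1 CPM against 4.98 to 13.04 CPM, and the scavenger receptor Marco 298, 162, 254 and 392 CPM against 0.74 to 52.9 CPM. Ly6c2, a monocyte marker, was 0 to 52.4 CPM against 288 to 488 CPM. Of the members, F13a1 was 1072 to 1336 CPM against 270 to 466 CPM and Mrc1 955 to 1124 CPM against 322 to 479 CPM. Folr2 and Lyve1 were also higher in them in each mouse, C1qa and C1qb were 1.12 to 1.58 times as high, and Ccl8 1.08 to 7.39 times. Vsig4 was 0.29, 0, 0 and 0 CPM against 0.54, 5.55, 0.92 and 1.85 CPM, but 5, 7, 4 and 5 M1 cells had a Vsig4 UMI at all, too few to tell the classes apart. Cd163 was 36.8, 21.8, 59.2 and 59.3 CPM in the high cells and 12.8, 7.28, 2.23 and 3.26 CPM in the others. Since the classes were cut on Pf4, which itself differed between the groups, these values are not compared between vehicle and digoxin. Ppbp, which like Pf4 is known from platelets, was 312, 51.2, 308 and 539 CPM, while the platelet genes Itga2b, Treml1 and Gp5, looked up afterwards, were at most 3.02 CPM.

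**Figure D5:**
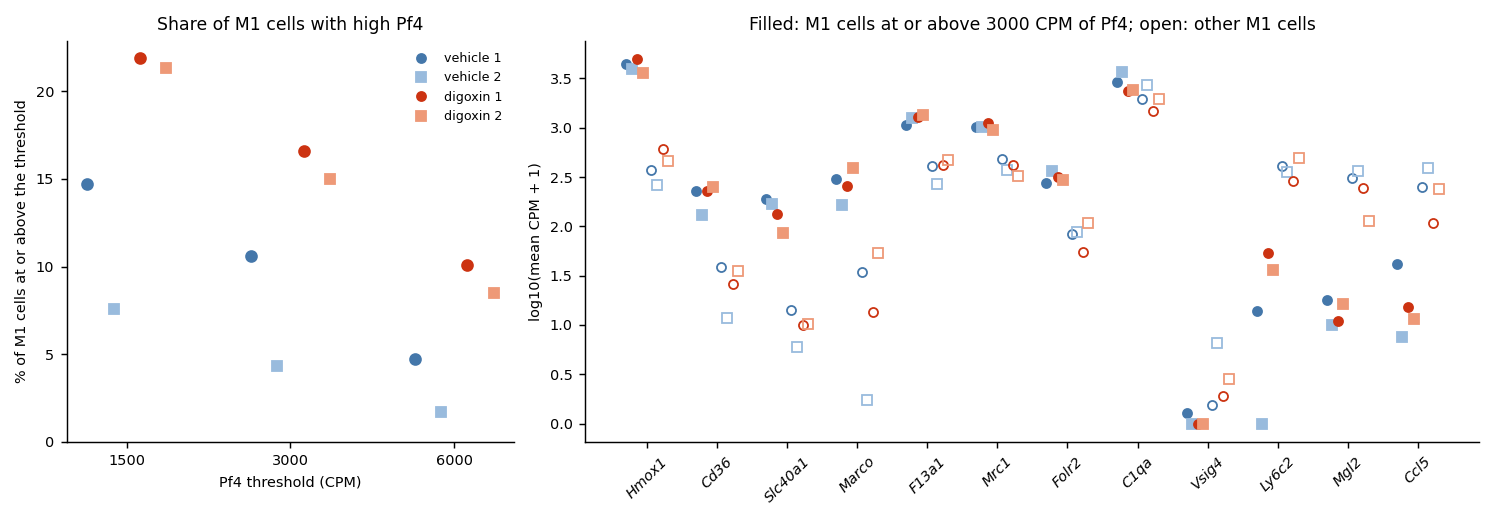
Left, percent of M1 cells at or above 1500, 3000 and 6000 CPM of Pf4 in each mouse; right, mean CPM of selected genes in cells at or above 3000 CPM and in other M1 cells (log10 axis). At 3000 CPM the shares are 10.6% and 4.35% with vehicle and 16.6% and 15.01% with digoxin.

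Genes with the most similar pattern were ranked by Pearson r over 40 points (10 populations in 4 mice, 9282 genes). C1qc came first for C1qa and for C1qb, at 0.991 in both cases. Mrc1 was closest to F13a1 (0.973), F13a1 to the macrophage marker Adgre1 (0.982), and Folr2 and Lyve1 both to the carbonyl reductase gene Cbr2 (0.964 and 0.912). Cd163 was closest to the chemokine gene Ccl12 (0.937), Pf4 to the lectin gene Clec4a1 (0.919), Ccl8 to Rab3il1 (0.917) and Vsig4 to Snx6 (0.873). Next in rank came C1qc and C1qa for Cd163, Snx2 and Npl for Vsig4, Slc7a8 and Clec4n for Pf4, and Cxcl16 and Ap2a2 for Ccl8. Mrc1 was followed by Cbr2 and Adgre1, Folr2 by Mrc1 and F13a1, Lyve1 by Mrc1 and Folr2, F13a1 by C1qa and Mrc1, C1qa by C1qb and Adgre1, and C1qb by C1qa and Lyz2. The points share libraries and depth, and the values are a description.

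Of 57 genes in lists of related function that were tested in macrophages, limma called 0, with a lowest adjusted p of 0.9996, and edgeR and DESeq2 called 0. Monocyte and recruited macrophage genes had a median log2 difference of 0.57 over 8 genes, with 3 higher in both digoxin mice (13.6% of all genes tested were) and 2 at an unadjusted p under 0.05 (555 of 13734 were). The M1 sub-cluster, which carries the monocyte markers, made up 45.3%, 29.0%, 47.6% and 42.5% of macrophages, and its part in this median was not tested. Arg1, which splits arginine, was 772, 264, 1084 and 574 CPM, overlapping between groups, as were Plac8 542, 260, 443 and 502 CPM, and the fibronectin gene Fn1 1280, 977, 1269 and 992 CPM. Within M1, Arg1 was 982, 396, 1818 and 987 CPM (1.10 ± 0.44), the groups separated by a narrow margin, and limma did not call it (Benjamini-Hochberg adjusted p = 0.611). It overlapped between groups in M2 (-0.20) and Highly proliferative M2 (0.28). Within M2, Fn1 was 1008, 857, 655 and 564 CPM (-0.61 ± 0.15) and within Highly proliferative M2 951, 874, 661 and 508 CPM (-0.65 ± 0.13), without overlap between groups in either. Within M1 it was 1627, 1265, 1946 and 1590 CPM (0.29 ± 0.16), overlapping between groups. limma called Fn1 in none of these (Benjamini-Hochberg adjusted p = 0.9997, 0.9999 and 0.722). The resident signature had a median of -0.11 over 12 genes; Cbr2 was 445, 517, 441 and 485 CPM Selenop 1103, 1474, 1235 and 1019 CPM, and the chemokine gene Ccl7 865, 600, 706 and 607 CPM. The scavenger and lectin receptors had a median of 0.18 over 10 genes, with Msr1 at 521, 435, 525 and 569 CPM Stab1 at 467, 505, 477 and 456 CPM, and Colec12 at 77.1 to 112 CPM.

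Of the other lists, transcription factors also had 2 genes at an unadjusted p under 0.05, complement had 1, and the rest had 0. Complement genes had a median of 0.003 over 7 genes, with C1qc at 1810, 2778, 1872 and 2079 CPM, C3ar1 at 257 to 274 CPM and Cfp at 376 to 470 CPM. The engulfment receptors and bridging proteins had -0.07 over 6 genes, 2 others of that list (Havcr1 and Stab2) being too low to test; Mertk was 44.4, 53.9, 48.4 and 38.5 CPM, its ligand gene Gas6 243, 259, 231 and 219 CPM, and Axl 88.0, 84.9, 83.1 and 64.7 CPM. Transcription factors had 0.07 over 7 genes, with Maf at 472, 468, 440 and 319 CPM and Klf4 at 784 to 891 CPM. Signals and receptors had -0.17 over 7 genes, with Csf1r at 512, 755, 567 and 491 CPM, Il4ra at 154 to 203 CPM and Tgfb1 at 290 to 328 CPM.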

How the data were processed

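Single-cell 3′ RNA libraries of tumors from 4 mice were analysed. The deposited expression values are the natural log of 1 plus UMIs per 10000 UMIs of the cell, and the authors also deposited the count of UMIs per cell. Cell Ranger 3.0.2, Seurat 3.0.2 and mm10 are named, with no role, per the submitters' processing notes; the cell filter is not given in the sources used here. UMIs were recovered as whole numbers for 100% of values (tolerance 0.01) and summed to the deposited count in all 18963 malignant and 12648 non-malignant cells. Cell types and sub-clusters are the authors' deposited labels, and 0 columns lay outside the 4 mice. A cell-name prefix with the number 3 is vehicle replicate 2 in the deposited cell table.

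UMIs were scaled to CPM per cell and averaged per mouse and population. limma 3.58.1 was fitted to log2(mean CPM + 1) over all genes kept by filterByExpr, with an empirical Bayes trend and Benjamini-Hochberg adjustment at 0.05; differences on this scale understate those of low genes. edgeR 4.0.16 and DESeq2 1.42.0 on summed UMIs were alternatives, as were other pseudocounts, no filter, a replicate block and leaving out each mouse. The limma script was tested on simulated data. With 2 mice against 2, an exact permutation test cannot go below 0.333, so none was used. Labels do not say more of the replicates than that they are separate samples, so p-values measure the spread between these samples. Scrublet (scanpy 1.11.5, expected share 0.06) marked 1381 of 31611 cells, 0.332% to 0.956% of non-malignant cells per mouse, and these cells were kept. The members, lists and tests were chosen with earlier results of these data known. Named genes were the members, the 3 most abundant genes of each list, any list gene past the threshold, and the 3 most similar genes by r; some of these are not reported here.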

Additional observations from a re-analysis of the deposited data

Results flagged for a closer look

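Folr2, the folate receptor gene, differed in opposite directions between populations. Its log2 difference of digoxin minus vehicle was 0.20 in Highly proliferative M2, where both digoxin mice were above both vehicle mice, and -0.47 in malignant cells, where both were below. The difference between the populations was not tested. Without the malignant cells that held 3 or more macrophage markers, the malignant value was above 0.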

How the results depend on the processing

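limma called 0 genes in each population under other pseudocounts, summed UMIs, no filter on low genes, without cells marked as doublets and without cells above 20% mitochondrial UMIs. DESeq2 called 20 genes in macrophages, 42 in M1, 9 in M2, 16 in Highly proliferative M2 and 45 in malignant cells; the cause was not tested. Leaving out one mouse, where the lone mouse of a group is assumed to vary like the other group, gave 0 to 132 calls in macrophages, 0 to 224 in M1, 0 to 50 in M2, 0 to 256 in Highly proliferative M2 and 0 to 5 in malignant cells. The highest count in macrophages and in each sub-cluster came without vehicle replicate 1. Vehicle 2, then the only vehicle mouse, is the mouse without Xist and with the highest share of M2 cells (61.5% of its macrophages). The part of these traits in the calls was not tested. The related lists gave 0 to 7 calls, again highest without vehicle replicate 1 (among them Marco, Fcna, Cd36, Plac8, Vcan and C3), and 1 (Chil3) without digoxin replicate 2.

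Same-numbered mice did not deviate together, with correlations of -0.04 in macrophages, -0.03 in M1 and 0.0068 in M2. In Highly proliferative M2 the correlation was 0.033 and in malignant cells -0.363. With 2 mice per group, such values cannot decide whether the numbers pair the mice. The replicate block gave 0 calls in every population, and the crossed pairing in malignant cells, added after seeing the data, gave 0.

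Over all macrophages, the log2 differences of Cd163 (-1.13 to -0.76), Vsig4 (-1.70 to -0.44), Pf4 and F13a1 kept their sign under the 12 alternatives compared. edgeR and DESeq2 were not among these alternatives. Cd163, Vsig4, Pf4 and F13a1 did not overlap between groups, so leaving out a mouse or changing the pseudocount could not change their sign. The differences of Mrc1, Folr2, Lyve1, Ccl8, C1qa and C1qb changed sign under at least 1 alternative. Few mice and few cells with a Vsig4 UMI limit the precision.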
